A study of Sus scrofa with 48 samples.

Results

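The carboxylesterase genes *CES1*, *CES2* and *CES3* were followed in the subcutaneous adipose tissue (SCAT) of 48 pigs through the probes that carry their names on a porcine oligonucleotide array. A probe with one of these names was kept when, in any of the 4 groups of 12 arrays, 9 or more arrays had it well above background. The genes had been selected on their lower level with the high-fat diet and on their variation between arrays. These choices rest on the measured values, so the diet differences and the spread between arrays are given as descriptions, and counts past a cut-off for diet are printed only as part of that description. All 10 probes with these names passed the rule, among 44356 kept probes of 60306 non-control spots. Of these, 8 were named *CES1* and 2 were named *CES3*. No probe was named *CES2*, which was therefore not analysed here, so that 2 of the 3 genes were measured, among 11086 genes with a kept probe.

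Carboxylesterases are serine hydrolases that cleave ester, thioester and amide bonds. CES1 is best known from liver, where it hydrolyses many drugs and takes part in the mobilisation of stored triglyceride and cholesteryl ester, and it is also made by adipocytes and macrophages. CES2 is known mainly from intestine, and CES3 is a less studied relative. In adipocytes, esterases of this family are found at the endoplasmic reticulum and around lipid droplets, next to the classical lipases that release fatty acids from fat stores.

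The pigs were Large White barrows (castrated males) of 2 lines bred apart on residual feed intake (RFI), which is what an animal eats beyond the intake predicted from its growth and maintenance, so that a low RFI stands for better feed efficiency. They were fed either a diet with more fat and fiber, from vegetable oils and wheat straw (HF), or one with little fat and much starch (LF), formulated at equal energy, and the labels give an age of 132 days for every animal. The 4 groups were LF pigs of the low and of the high RFI line and HF pigs of the low and of the high RFI line, each with 12 pigs and 1 array per pig of dorsal SCAT. Each of the 6 slides carried 8 arrays, with 2 arrays of every group, and the slides fell on 2 scan dates. Levels are log2 of the background-subtracted spot intensity relative to the median kept probe of the array, so that 0 is the level of that median probe. Between 62.2% and 81.9% of the probes of an array were well above background. The label of the tissue was checked on 6 adipocyte markers (*ADIPOQ*, *FABP4*, *PLIN1*, *CIDEC*, *LEP*, *LIPE*), and each of the 6 had a probe well above background on all 48 arrays.

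The sequences of the probes decide which transcript each one reads, and they are shown first for the probes whose name and sequence part ways. Each probe is 60 bases long. The *CES3* probe O1303 had the same 60 bases as a *CES1* probe, called here the second O1303 spot, and it shared a run of 58 bases with the *CES1* probe A_72_P444754, which the array annotation starts at base 1850 of the *CES1* transcript. The first 30 bases of the 3 probes are given, with capitals for the shared run.
A_72_P444754: agGGAGGGGGAATTTCTGTAGCTGCGGCCT
O1303: GGAGGGGGAATTTCTGTAGCTGCGGCCTCA
Second O1303 spot: GGAGGGGGAATTTCTGTAGCTGCGGCCTCA

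O1303 is therefore described below with the *CES1* probes, whatever its name, and these 9 probes are called the *CES1* transcript probes. The remaining *CES3* probe, A_72_P254392, starts at base 701 of the *CES3* transcript. Its longest run in common with any of the other 9 was 6 bases, in capitals here, so that it is the single member that reads *CES3* apart from *CES1*.
A_72_P254392: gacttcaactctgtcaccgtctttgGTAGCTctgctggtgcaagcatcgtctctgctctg

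The other *CES1* probes lie further upstream in the transcript, and some of them overlap. A_72_P444749, which starts at base 1015, and A_72_P223187, which starts at base 1030, overlap by 45 bases and share a run of 41, in capitals below. The overlap holds 1 difference, G19A, counted from the 5′ end of A_72_P444749 and with its base first. A_72_P708050 (base 1319) and A_72_P755442 (base 1350) share a run of 29 bases. The probe nearest to the start of the transcript, A_72_P708054 (base 357), and A_72_P746133 (base 1610) stand alone and are shown in full as the probes with the smallest and the largest spread between arrays.
A_72_P444749: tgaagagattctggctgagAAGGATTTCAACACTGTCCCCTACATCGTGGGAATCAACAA
A_72_P223187: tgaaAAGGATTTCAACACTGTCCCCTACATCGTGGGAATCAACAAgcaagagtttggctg
A_72_P708054: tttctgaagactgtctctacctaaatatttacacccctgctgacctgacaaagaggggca
A_72_P746133: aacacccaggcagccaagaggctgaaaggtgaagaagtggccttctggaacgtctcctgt

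*CES1* was a bright transcript in most of these pigs, and it varied between pigs of one group far more than most probes did. The brightest *CES1* transcript probes, O1303 and its second spot, were well above background on all 48 arrays, and the processed intensity of O1303 ran from 171 to 56031 units. In LF low RFI pigs the log2 level of O1303 was lowest at 5.49, had its median at 6.98 and was highest at 7.28, with a mean of 6.78 ± 0.51 (SD, n = 12). In LF high RFI pigs it ran from 2.10 through a median of 5.98 to 7.09, with a mean of 5.60 ± 1.54 (SD, n = 12). The 2 groups overlapped, the median was lower in LF high RFI pigs, and 2 of these pigs lay far below the rest.

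In HF low RFI pigs the level of O1303 ran from 3.85 through 5.75 to 7.49, with a mean of 5.79 ± 0.97 (SD, n = 12). In HF high RFI pigs it ran from -1.36 through 4.80 to 6.94, with a mean of 3.92 ± 2.70 (SD, n = 12). The 4 groups overlapped, and HF high RFI pigs spread over the widest range, 8.30 on the log2 scale. The 9 *CES1* transcript probes kept the same order at both ends. The mean and the median were highest in LF low RFI and lowest in HF high RFI pigs for 9 of the 9 probes. HF low RFI and LF high RFI lay between them, and their order was not fixed: the mean was higher in HF low RFI for 9 of 9 probes and the median for only 1 of 9.

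**Figure D1:**
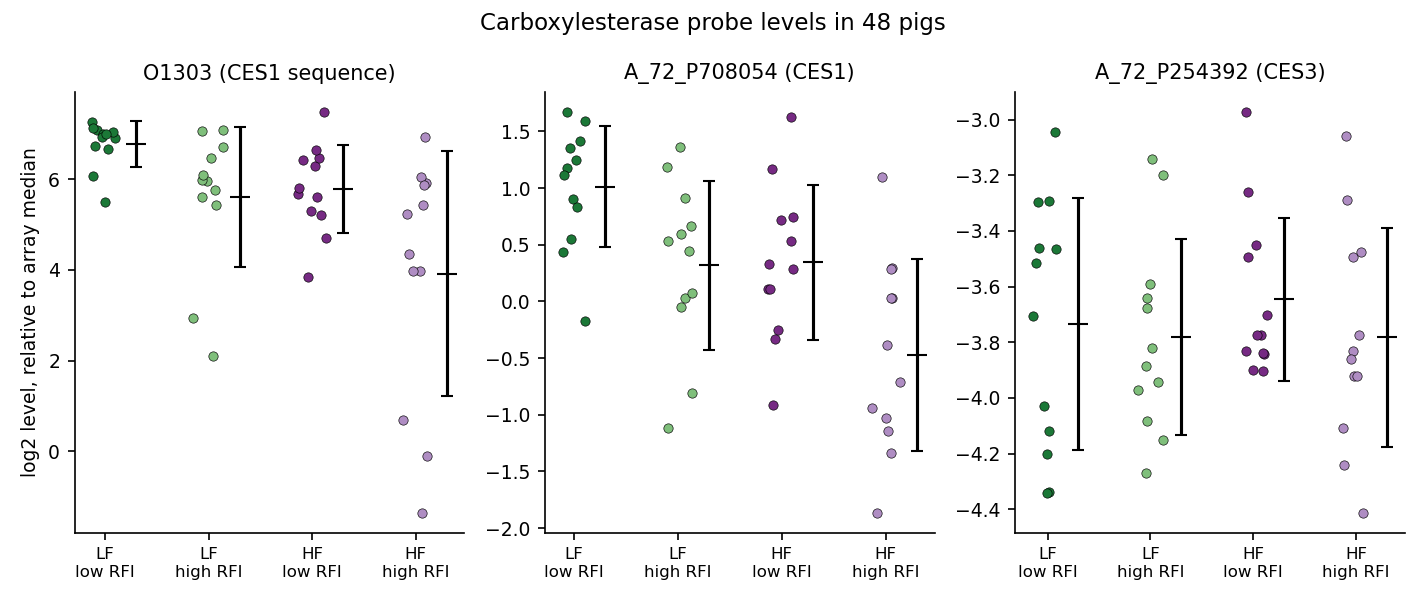
Log2 level relative to the array median (vertical axis) of 3 probes in the 4 groups, with 1 point per pig and the mean ± SD of 12 pigs beside them. O1303 and A_72_P708054 read *CES1* and are highest in LF low RFI pigs, with single pigs of the high RFI line far below the rest for O1303, whereas A_72_P254392, which reads *CES3*, stays between -4.41 and -2.97 in every group.

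The wide range came from a few pigs with little *CES1* signal. In HF high RFI, the 3 lowest pigs for O1303 were replicates 3, 11 and 12, at -1.36, -0.11 and 0.69. The next pig of that group lay at 3.98, a step of 3.28 on the log2 scale or 9.73-fold. In LF high RFI, replicates 6 and 9 lay at 2.10 and 2.94, followed by a step of 2.50 or 5.66-fold. No step of this size was seen among the lowest pigs of the low RFI line, where the steps between the 4 lowest pigs and their next neighbours were at most 0.85.

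The 5 lowest pigs of all 48 were thus of the high RFI line, 3 on the HF and 2 on the LF diet, and they were hybridized on 4 different slides. The 3 lowest arrays were the same for 8 of the 9 *CES1* transcript probes, and the 5 lowest were the same for 7 of the 9, O1303 included. On these 5 arrays the share of probes well above background was 72.2% to 77.9%, and the array median before centring was 8.07 to 8.78 on the log2 scale, against 7.92 to 8.78 over all 48 arrays. O1303 and its second spot, which share one sequence, differed on an array by 0.03 on average, with an SD of 0.05 and at most 0.15 (log2, n = 48). This difference covers the noise between spots of an array and leaves out that of sampling, RNA and labelling.

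Spread differed along the probes. The SD within groups was 1.65 to 1.72 for the 5 probes A_72_P755442, A_72_P746133, A_72_P444754, O1303 and its second spot, and only 0.25% to 0.34% of all 44356 kept probes had a larger one. It was 1.09 to 1.20 for A_72_P444749, A_72_P223187 and A_72_P708050, which lie mid-transcript, and 0.71 for A_72_P708054. The median SD over all kept probes was 0.29. The whole range over 48 arrays followed the same pattern, from 3.54 (11.6-fold) for A_72_P708054 to 9.28 (623-fold) for A_72_P444754 among the probes well above background on all 48 arrays. A_72_P746133 was not well above background on the lowest array, HF high RFI replicate 3, where it gave 21.0 intensity units, so that its lowest level there is only a bound. A_72_P708054 gave 120 units on that array. The spread was smallest in LF low RFI pigs, with SDs of 0.51 to 0.57 over the 9 probes, and ranged up to 2.79 in HF high RFI pigs. As the members had been picked for their variation, these spreads are not tested.

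The *CES3* probe A_72_P254392 behaved unlike all of these. It gave 15.1 to 46.4 intensity units over the 48 arrays. It was well above background on 11 of 12 arrays in HF low RFI pigs, as in LF high RFI pigs, and on 8 of 12 arrays in each of the remaining groups, so it was the member nearest to the limit of the rule and no member lay outside it. Its mean log2 level was -3.65 ± 0.29 in HF low RFI, -3.78 ± 0.39 in HF high RFI, -3.73 ± 0.45 in LF low RFI and -3.78 ± 0.35 in LF high RFI (SD, n = 12 each). The groups overlapped, and their means lay closer together than the smallest of the 4 SDs.

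The *CES1* transcript probes varied together, as a description of probes that read one transcript and were picked for their variation. Across the 48 arrays, as deviations from group means, their 36 pairs had a Pearson r of 0.846 to 0.9996 and a Spearman rho of 0.882 to 0.998. Without the 2 arrays farthest from the median of the first probe, r was 0.856 to 0.999, and within single groups of 12 pigs it was 0.88 or more. For the probe A_72_P254392 against the other 9, r was between -0.11 and -0.06 and rho between -0.14 and -0.03 (two-sided permutation test within groups with 100000 resamples, Benjamini-Hochberg adjusted p over 45 pairs from 0.576 to 0.713 for r and from 0.426 to 0.828 for rho), and r was -0.16 to -0.09 without the 2 farthest arrays. Within single groups its r ran from -0.62 to 0.43. This probe was well above background on only 38 of 48 arrays. A low r therefore cannot show whether *CES3* varied apart from *CES1*. Overlapping probes share sequence, so that their agreement is partly repetition.

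**Figure D2:**
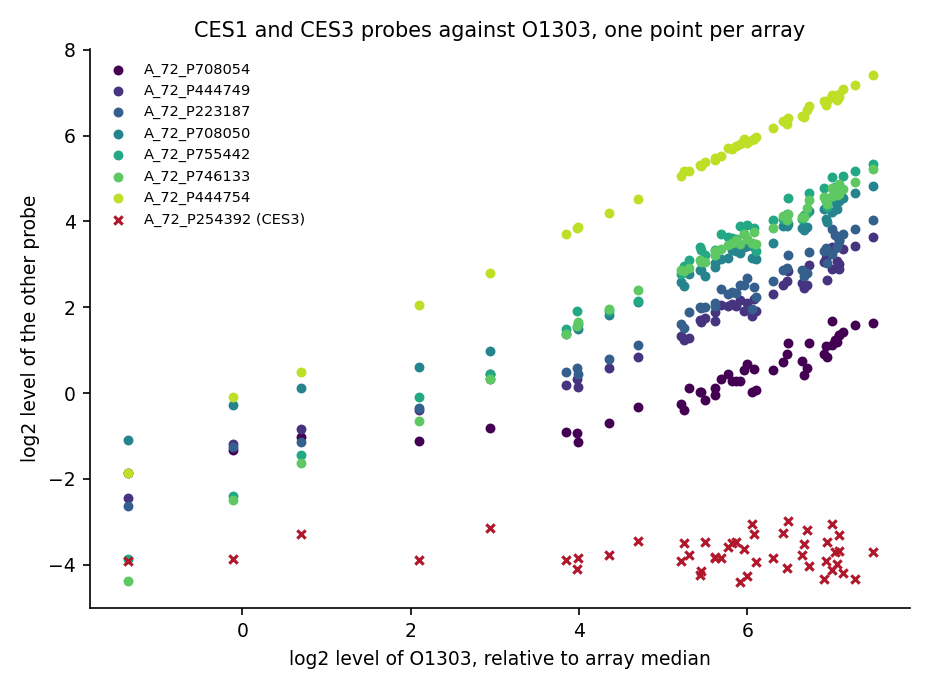
Log2 level of 7 *CES1* probes and of the *CES3* probe A_72_P254392 (vertical axis) against that of O1303 (horizontal axis), with 1 point per array. The *CES1* probes rise together with O1303 over its whole range, over the smallest range for A_72_P708054, and the *CES3* probe stays near -3.80, its median.

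On the HF diet *CES1* transcript levels were lower than on the LF diet at each of the 9 probes. These differences chose the members and are given as a description. For O1303 the mean level was 4.86 ± 2.20 in 24 HF pigs and 6.19 ± 1.28 in 24 LF pigs (SD), a log2 fold change of -1.34 ± 0.46 (SE) or 2.53-fold lower. The 2 diets overlapped, with 2 of 24 HF pigs above the LF median and 20 of 24 LF pigs above the HF median. Over the 9 probes the log2 fold change ran from -1.36 to -0.73, with SEs of 0.20 to 0.48, whereas A_72_P254392 differed by 0.04 ± 0.11.

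The cut-offs of the study (raw p under 0.01, fold change over 1.1, Benjamini-Hochberg adjusted p under 0.08) were passed for diet by 9 of the 10 members, against 13.1% of all kept probes (7.44% lower and 5.61% higher on HF), a count that the choice of members fixes. Within each of the 6 slides, with 4 HF and 4 LF pigs, 7 of the 9 probes were lower on HF in 6 of 6 slides and the other 2, A_72_P755442 and A_72_P746133, in 5 of 6. Within the first scan date the fold changes over the 9 probes were -1.29 to -0.82 and within the second -1.45 to -0.64. In high RFI pigs the difference between diets was -1.71 to -0.79 over the 9 probes, and in low RFI pigs -1.02 to -0.67. The difference over all pigs was -1.37 to -0.69 with the array position on the slide as a block and -1.20 to -0.70 with the array median before centring as a covariate. With robust regression it was -1.09 to -0.78, and with group medians in place of means -1.22 to -0.94. For O1303 these gave -1.08 and -1.20.

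Between lines, *CES1* transcript levels were higher in low RFI than in high RFI pigs at each of the 9 probes. The rule did not use this contrast, but it used the variation between arrays, to which the low pigs of the high RFI line belong, so that the tests between lines are not independent of the choice of members. For O1303 the mean was 6.29 ± 0.91 in 24 low RFI pigs and 4.76 ± 2.32 in 24 high RFI pigs (SD). The 2 lines overlapped in their upper range, where the highest low RFI pig lay at 7.49 and the highest high RFI pig at 7.09, and 17 of 24 low RFI pigs lay above the high RFI median and 4 of 24 high RFI pigs above the low RFI median. The log2 fold change was 1.53 ± 0.46 (SE), or 2.88-fold, but it missed the cut-off (limma, adjusted p = 0.094).

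The test was passed by 4 of the 10 members, all higher in low RFI pigs, against 1.37% of all kept probes (0.809% higher and 0.557% lower in low RFI). They were the 4 *CES1* probes with the smallest spread: A_72_P708054 with 0.75 ± 0.20 (adjusted p = 0.0452), A_72_P223187 with 1.22 ± 0.33 (adjusted p = 0.0551), A_72_P708050 with 1.16 ± 0.32 (adjusted p = 0.0549) and A_72_P444749 with 1.11 ± 0.30 (adjusted p = 0.0551; limma, log2 fold change ± SE). The 5 brighter or more variable probes had larger fold changes, 1.53 to 1.60, larger SEs, 0.46 to 0.48, and adjusted p-values of 0.0895 to 0.0949. These probes read the same transcript on the same arrays, so the 9 probes are 1 observation made 9 times and not 9 independent results. The *CES3* probe A_72_P254392 differed between lines by 0.09 ± 0.11 (limma, adjusted p = 0.896), with a 95% interval of the difference from -0.13 to 0.31. As this probe lies close to background, the interval describes its signal, and small differences in the *CES3* transcript could not be seen.

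For A_72_P708054, the probe with the smallest adjusted p for line, the level in LF low RFI ran from -0.17 through 1.15 to 1.67 and in LF high RFI from -1.12 through 0.49 to 1.36. In HF low RFI it ran from -0.91 through 0.31 to 1.63 and in HF high RFI from -1.86 through -0.55 to 1.096. Of the 24 low RFI pigs, 20 lay above the median of the high RFI pigs, and 4 of the 24 high RFI pigs lay above the median of the low RFI pigs. The line difference was 0.82 ± 0.28 among HF pigs and 0.69 ± 0.28 among LF pigs (log2, SE), and neither passed the cut-offs alone (limma, adjusted p = 0.559 and 0.603).

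The low levels in single pigs weighed on the line difference. With robust regression the fold changes over the 9 probes were 0.74 to 0.95, and with group medians in place of means 0.75 to 1.12, so that O1303 changed from 1.53 to 0.91 and 0.98. Low RFI pigs were higher in 5 of 6 slides for 9 of 9 probes, and within the 2 scan dates the fold changes were 1.01 to 1.91 and 0.50 to 1.28 (0 of 10 past the cut-offs in either). The count of 4 also fell to 0 with the array position as a block (0.68 to 1.51, limma, adjusted p from 0.153 to 0.231), and it rose to 9 with array weights. With the slide as a block the count was 5. It was 1 without HF low RFI replicate 1, HF high RFI replicate 11, HF high RFI replicate 12 or LF high RFI replicate 6, and 2 without HF low RFI replicate 6, HF low RFI replicate 11 or LF low RFI replicate 1. It was 9 without HF low RFI replicate 7, HF high RFI replicates 5, 7, 8 or 10, LF low RFI replicate 7 or LF high RFI replicate 10. Without one array, the fold change of O1303 stayed between 1.29 and 1.67.

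**Figure D3:**
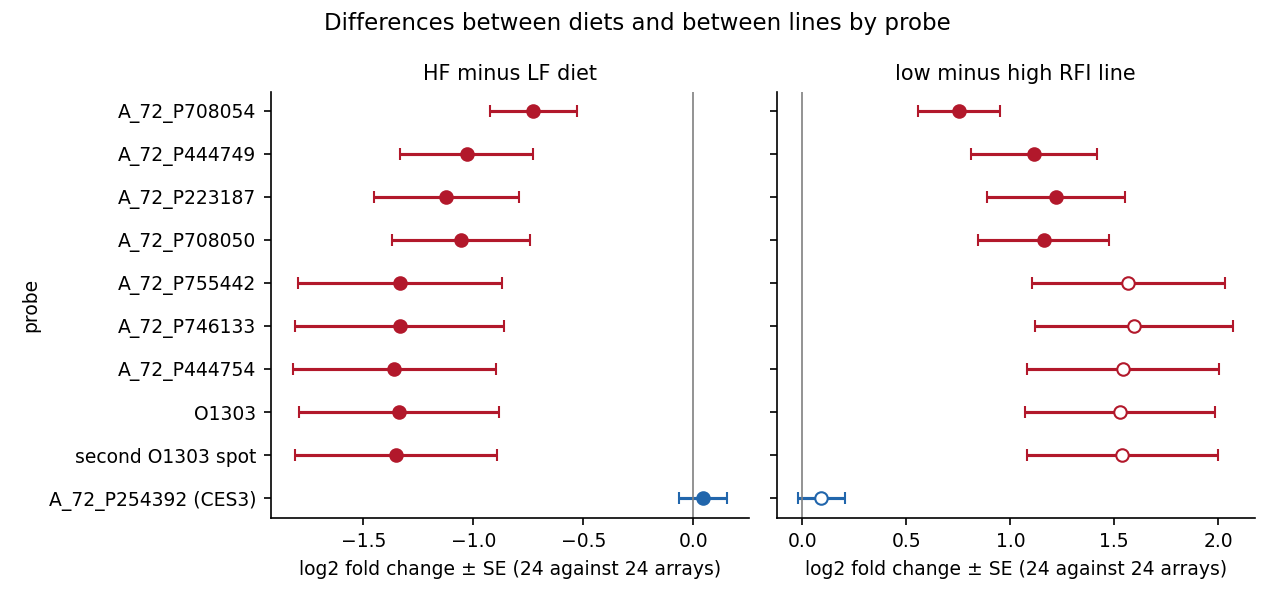
Log2 fold change ± SE (horizontal axis) of the 10 probes for diet (HF minus LF, left) and line (low minus high RFI, right), with the *CES1* transcript probes in red from the start of the transcript downwards and the *CES3* probe in blue. Filled points on the right passed the cut-offs, open points did not, and the left panel is a description of the contrast that chose the probes. The red points lie between -1.36 and -0.73 for diet and between 0.75 and 1.60 for line, and the blue points lie near 0.

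The diet difference could not be shown to depend on the line. No member passed the cut-offs for the interaction, and none had a raw p under 0.05 (limma, lowest p = 0.446). None of the 44356 kept probes passed either (0% called, 462 with a raw p under 0.05), and analysis of variance without moderation also called 0 of the 10 members. The intervals were wide: for O1303 the difference between the 2 diet effects was 0.70, with a 95% interval from -1.13 to 2.53, and it was 0.21 by robust regression and -0.05 with group medians in place of means.

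In whole tissue, fewer cells of a type and less RNA per cell cannot be told apart. The level of *CES1* was therefore set beside markers of the cell types that such samples can hold. The summed level of the 6 adipocyte markers was 10.95 to 11.49 on all arrays, with medians of 11.26 in HF low RFI, 11.20 in HF high RFI, 11.36 in LF low RFI and 11.21 in LF high RFI. Of these 6 genes 4 were below 0 for diet, with a median log2 fold change of -0.06, and 1 passed the cut-offs: *LEP*, the hormone leptin, was lower on HF (-0.67 ± 0.16, adjusted p = 0.00518; limma). Macrophage markers were measured for 9 of 10 genes, and their summed level was 4.49 to 6.71 in HF low RFI, 5.15 to 6.79 in HF high RFI, 4.72 to 6.94 in LF low RFI and 5.01 to 6.56 in LF high RFI. Hepatocyte markers were measured for 4 of 7 genes, with a range of 3.97 to 6.93 over all groups, and *FGA* and *FGB*, the fibrinogen chains made by liver, did not pass the filter. The 4 hepatocyte markers had a median log2 fold change of -0.45 for diet, with 4 of 4 below 0, and of 0.14 for line, with 4 of 4 above 0, and the 9 macrophage markers had medians of 0.04 for diet and -0.21 for line, with 8 of 9 below 0. None of these 13 hepatocyte and macrophage genes passed the cut-offs in either comparison (limma, lowest adjusted p = 0.171, that of *TTR* for diet). Skeletal muscle markers had a median of -0.22 for diet, with 7 of 7 below 0, and red blood cell markers one of -0.12, with 3 of 3 below 0, and none of these passed the cut-offs either. The summed levels of skeletal muscle, red blood cell, lymphocyte, endothelial and keratinocyte markers overlapped between the groups too.

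Of 8 marker sums and 3 technical measures of the arrays, none passed a test of its relation to the second O1303 spot across the 48 pigs, with group means removed (permutation tests, 11 relations, adjusted p from 0.573 to 0.817 for r and from 0.746 to 0.902 for rho). The largest r in size was that of the array median before centring, with r = -0.20 and rho = -0.15 (adjusted p = 0.573 and 0.746), and r = -0.10 without the 2 pigs with the most distant *CES1* levels. The largest rho in size, -0.16, was that of skeletal muscle markers (r = -0.13), and without those 2 pigs red blood cell markers had the largest r in size (-0.19). For macrophage markers r was -0.19 and rho -0.09, and for adipocyte markers r was 0.04 and rho 0.07. The part of these cell types in the *CES1* differences was not tested beyond these relations.

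Other genes followed the *CES1* pattern only loosely. Over 11085 other genes, each by its brightest kept probe and as deviations from group means over 48 arrays, the median absolute r with the second O1303 spot was 0.11. After O1303 itself, the most similar gene was *DYNC1LI2*, a light intermediate chain of cytoplasmic dynein, with r = 0.71, rho = 0.69 and r = 0.68 without the 2 most distant pigs. It was followed by *CMTM3*, a membrane protein with a MARVEL domain (r = 0.57, rho = 0.48), *TCHP*, a keratin filament and centrosome protein (r = 0.57, rho = 0.44), and *CREBZF*, a leucine zipper factor (r = 0.56, rho = 0.51). At the opposite end were *METTL1*, a tRNA methyltransferase, with r = -0.50, and *RYR3*, a calcium release channel, with r = -0.48. These weakened to -0.35 and -0.21 without the 2 most distant pigs. The probes share arrays and normalization, and the values are descriptions.

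Gene order was taken from the RefSeq annotation of Sscrofa11.1, after these names were seen. *CES3* lies on the chromosome of *CES1*, with 60 protein-coding genes between them. *DYNC1LI2* lies beyond *CES3* with 7 genes between, and *CMTM3* beyond *CES3* with 9 genes between. Of 107 measured genes within 100 protein-coding genes on either side of *CES1*, 3 had an absolute r over 0.5 with O1303, namely *DYNC1LI2*, *CMTM3* and *LRRC29* (r = 0.51), against 4 of 10977 genes elsewhere. *DYNC1LI2* and *CMTM3* were among the names that had prompted the look at gene order, so this count is a description and not a test. The medians of absolute r were close, 0.12 within that window and 0.11 elsewhere. Of the 3 probes of *DYNC1LI2*, A_72_P058666 had r = 0.71 with O1303, A_72_P087576 had r = 0.59 and O10061 had r = 0.03, and both probes of *CMTM3* gave similar values (0.58 and 0.59). The own probe of *CES3*, which is nearer to both genes in this order, had r = 0.22 with *DYNC1LI2* and r = -0.24 with *CMTM3*. Neither gene passed the cut-offs for line (0.20 ± 0.08, adjusted p = 0.273, and 0.17 ± 0.11, adjusted p = 0.641; limma, log2 fold change ± SE).

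**Figure D4:**
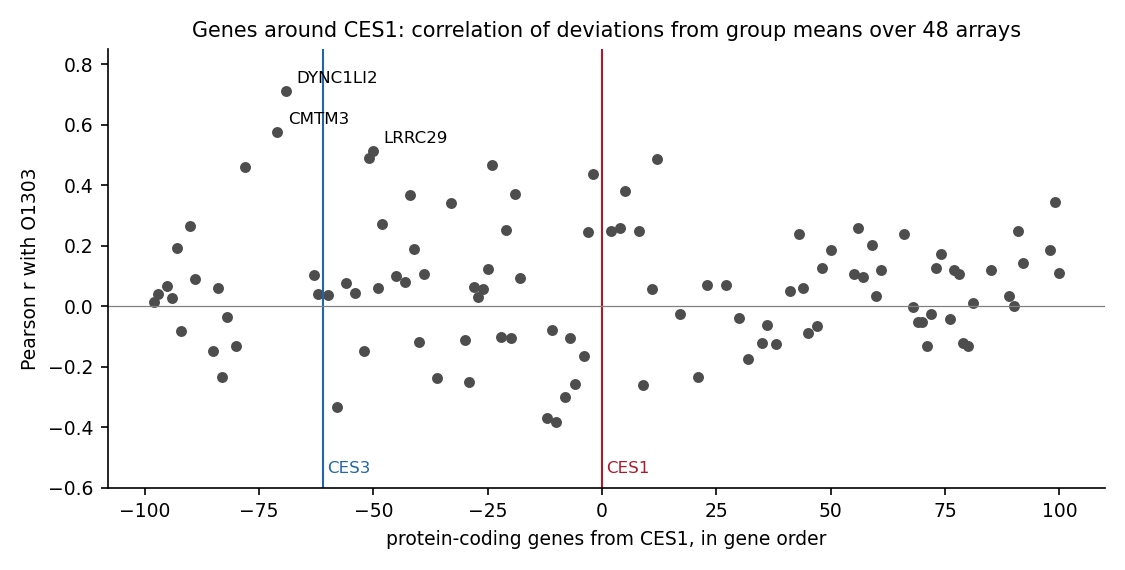
Pearson r with O1303 over 48 arrays (vertical axis, deviations from group means) of 107 measured genes against their distance from *CES1*, counted in protein-coding genes (horizontal axis). *DYNC1LI2* and *CMTM3*, with the highest values at 0.71 and 0.58, sit just beyond *CES3*, and most other genes lie near 0.

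Among genes of related function, more were lower than higher on the HF diet. Of 80 genes in 4 lists, 63 were tested, each by its brightest kept probe. For diet 15 passed the cut-offs (23.8%, against 12.6% of 11086 genes, 9.29% lower and 3.31% higher on HF), 14 with lower and 1 with higher levels on HF. The lists were chosen with earlier results of these data known, so these shares are set side by side as a description and not as a test. Of 13 other ester hydrolases 1 fell, *SIAE*, a sialic acid esterase (-0.16 ± 0.05, adjusted p = 0.0318), and the median over the list was -0.07, against -0.04 over all genes. Of 13 genes of neutral lipid hydrolysis 4 fell: *PNPLA3*, a lipid droplet hydrolase (-0.94 ± 0.25, adjusted p = 0.0115), *MGLL*, which cleaves monoglycerides (-0.39 ± 0.11, adjusted p = 0.0197), *LIPA*, the lysosomal acid lipase (-0.28 ± 0.07, adjusted p = 0.00366), and *CIDEA*, a lipid droplet protein (-0.36 ± 0.10, adjusted p = 0.0155; limma, log2 fold change ± SE). The median of this list was -0.10.

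Of 19 genes of drug and retinoid metabolism 6 fell and none rose, with a list median of -0.13. They include partners of carboxylesterases in drug clearance, the sulfotransferase *SULT2A1* (-0.92 ± 0.25, adjusted p = 0.0112), the glucuronosyltransferase *UGT1A6* (-0.50 ± 0.16, adjusted p = 0.0312) and the epoxide hydrolase *EPHX1* (-0.37 ± 0.13, adjusted p = 0.0483), and on the retinoid side the retinal dehydrogenase *ALDH1A1* (-0.40 ± 0.14, adjusted p = 0.0484). Another was *DGAT1*, an acyltransferase for diglycerides and retinol (-0.29 ± 0.10, adjusted p = 0.0475). Of 18 transcriptional regulators *PPARD* (-0.60 ± 0.13), *RXRA* (-0.21 ± 0.06) and *CEBPA* (-0.27 ± 0.07) fell and the brightest probe of *PPARA* rose (0.96 ± 0.22; limma, adjusted p of 0.00874 or less for 3 of the 4 and 0.00983 for *CEBPA*). Over 20 other settings the difference was -0.73 to -0.23 for *PPARD*, -0.30 to -0.15 for *RXRA* and -0.40 to -0.14 for *CEBPA*. The rise of *PPARA* was that of 1 probe: as the mean of all its kept probes it was 0.11 ± 0.12 (adjusted p = 0.593).

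With the same limit from the choice of lists, 3 of the 63 genes passed for line (4.76%, against 1.18% of all genes, 0.785% higher and 0.397% lower in low RFI), all higher in low RFI pigs. They were *FAAH*, the fatty acid amide hydrolase (0.85 ± 0.18, adjusted p = 0.0105), *PLIN2*, a lipid droplet coat protein (0.79 ± 0.15, adjusted p = 0.00498), and *EPHX1* (0.50 ± 0.13, adjusted p = 0.0382; limma, log2 fold change ± SE). *EPHX1* was thus past the cut-offs in both comparisons, lower on HF and higher in low RFI, but its diet call held in only 13 of 20 other settings and was lost, for one, with 75th percentile scaling (-0.33 ± 0.12, adjusted p = 0.0866). The diet calls of *SIAE* and *DGAT1* held in 16 of 20, and were lost with that scaling too (-0.12 ± 0.04, adjusted p = 0.0907, and -0.25 ± 0.09, adjusted p = 0.0838). Over 20 other settings the line difference was 0.52 to 1.18 for *FAAH*, 0.72 to 0.90 for *PLIN2* and 0.43 to 0.54 for *EPHX1*. Within the scan dates, 9 and 2 of the 63 genes passed for diet and 1 and 0 for line, with 24 arrays in each.

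**Figure D5:**
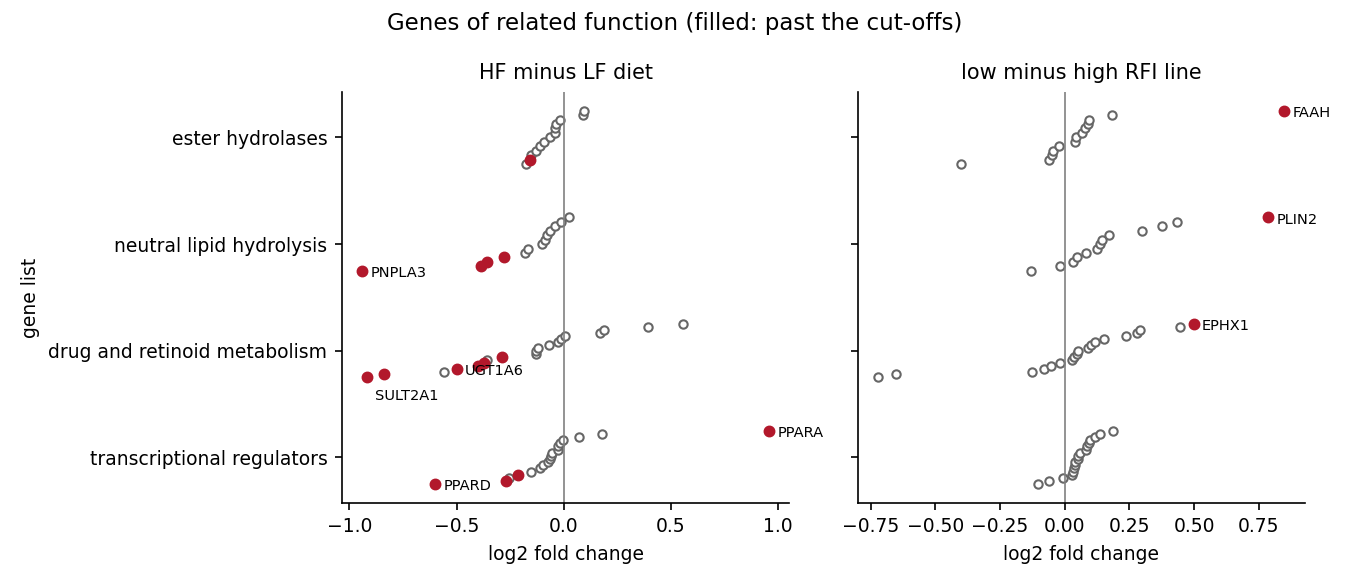
Log2 fold change (horizontal axis) for diet (HF minus LF, left) and line (low minus high RFI, right) of 63 genes in 4 lists of related function, with 1 point per gene and filled points past the cut-offs. For diet 14 filled points lie below 0 and only *PPARA*, by its brightest probe, above, and for line the 3 filled points, *FAAH*, *PLIN2* and *EPHX1*, lie above 0.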

How the data were processed

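RNA of SCAT from 48 pigs was labelled with 1 dye and hybridized by the authors to custom porcine arrays, and Feature Extraction 10.7.3.1 quantified the scans. Linear spot intensity is what the deposited per-array files hold, and the processed intensity used here had its background subtracted in that step. A second deposited file gives log2 values of 38987 probes, filtered and centred by the authors in R 2.10.0. It was checked to hold the log2 median spot intensity centred on the array median (largest difference 4.87e-09) and served as an alternative.

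Spots flagged as non-uniform or population outliers were set to missing (156 among 44356 kept probes), no spot was saturated, and log2 values were centred on the median of each array. The number of arrays, and not a read depth, limits the precision. Diet, line and interaction were fitted to all 48 arrays with limma 3.58.1 (lmFit, eBayes with an intensity trend; R 4.3.3), two-sided, which is the two-way model of the study's methods with a moderated spread. The fit was tested on simulated data with normal noise of equal spread in all groups. The spread of the *CES1* transcript probes differs between groups, so that test does not cover them. Probes were named by the array files and the Sscrofa11.1 gene table (27142 probes, 13014 symbols), and a gene was represented by its brightest kept probe. The array files name no genome build, so no genome coordinates of the probes are given. Groups and replicate numbers came from the sample titles.

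The named genes are, by rule, the 5 most and 3 least similar to the brightest probe of a member and the called genes of 4 related lists; 2 genes that this rule names are not reported here. *LRRC29* and the neighbouring genes were picked with their values in view. The members and all lists were chosen with earlier results of these data known. The alternatives were other background corrections, normalizations, filters, flags, blocks, weights, tests and the omission of each array. Robust regression and group medians were added after seeing the data. A fit with the replicate number as a block was an alternative.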

Additional observations from a re-analysis of the deposited data

How the results depend on the processing

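The choice of members fixes the count of 9 past the cut-offs for diet, and nothing is read from it or its range: it was 7 to 9 when each array was left out in turn and lay within 1.5 times of 9 in 15 of 19 other settings. It was 4 with the array position as a block, 4 with the array median before centring as a covariate, and 0 within each scan date. The count of 4 for line was 1 to 9 with each array left out. It was 1 without a filter on dim probes, 1 by analysis of variance without moderation, 0 with the array position as a block, 9 with array weights and 0 within each scan date. With a replicate block it was 9 (limma, adjusted p = 0.0767 for O1303), and the diet count was 9 too. The labels do not say what a number marks: arrays of equal number had a median r of 0.16 over 72 pairs, with 48 over 0.1, against -0.02 for other numbers and 0.08 for other numbers on the same slide. The cause of these changes was not tested, except that a scan date holds 24 arrays only. The interaction count was 0 in all 67 settings. Of related genes, 9 and 2 passed for diet within the scan dates (15 with all arrays), and for line 1 and 0 within the scan dates and 5 with array weights (3 with all arrays). Diet and line fold changes of the 9 *CES1* transcript probes kept their sign in every setting run. Their difference between the 2 diet effects did not: it was -0.07 to -0.02 for 4 of them with group medians in place of means and -0.10 for A_72_P708054 within the second scan date. Their lowest r among pairs was recomputed in 4 other settings and was 0.84 to 0.85. Levels of A_72_P254392 lie close to background, so that small differences in *CES3* could not be seen.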

Other observations

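Pigs with the same replicate number on the 2 diets were set side by side for O1303, a comparison chosen after the values were seen on a probe picked for its variation, and given as a description with no test. In the low RFI line the levels of the 12 HF and 12 LF pigs of equal number had r = 0.85 and rho = 0.71, and r = 0.71 without the 2 most distant HF pigs. Replicates 7, 10 and 4 were the 3 lowest on both diets. In the high RFI line r was 0.22 and rho 0.57, and r was 0.33 without the 2 most distant HF pigs. The labels do not say what a number marks, and each slide held 2 numbers, so that number and slide cannot be fully told apart. The difference between the 2 lines in this relation was not tested.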
